A study of Mus musculus with 8 samples.

Results

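DNA replication genes were examined in RNA sequencing libraries that the labels name mouse pulmonary endothelial cells from lung. The members are all genes whose pathway annotation in the deposited table holds the KEGG code mmu03030, DNA replication. The code was found for 35 of the 21878 genes in the table. By its title, the study deals with the lung endothelium during endotoxemic injury and with the serine protease KLK8 (kallikrein-related peptidase 8). There were 4 libraries with the treatment label Ad-KLK8 and 4 with the label Ad-control. The labels do not expand the prefix Ad, and they give no strain, genotype, age, dose or time for either group. They also do not say whether the libraries of a group came from separate animals or cultures, so p-values here measure only the spread between these libraries, which may be technical.

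Replication of the genome in S phase is carried out by a machine whose parts are shared by all dividing cells. The MCM2 to MCM7 ring unwinds the DNA, replication protein A (RPA) coats the single strands, and polymerase alpha with primase lays down a short RNA and DNA primer. The clamp loader RFC then places the PCNA ring, which holds polymerases delta and epsilon on the template. The flap nucleases FEN1 and DNA2, the ligase LIG1 and the RNase H enzymes turn the short Okazaki fragments of the lagging strand into a continuous strand. Transcription of many of these genes is known to rise with entry into S phase, under E2F transcription factors, and to be low in resting cells.

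Levels are given as RPKM, a read count divided by gene length and by library size, so that genes can be set beside each other. Reads assigned to genes numbered 17775433 to 18692134 in the Ad-KLK8 libraries and 15758696 to 16747740 in the Ad-control libraries, as recovered from the steps of the RPKM values. The gene named in the treatment did not separate the groups. Klk8 was at 1159, 3263, 1354 and 1276 RPKM in the Ad-KLK8 libraries, against 1135, 1403, 1232 and 1422 RPKM in the Ad-control libraries (two-sided exact permutation p = 0.657, of which the smallest possible is 0.0286). The log2 difference was 0.31, and after median-of-ratios scaling it was 0.53 (exact permutation p = 0.0857). Every direction below therefore rests on the labels. Ad-KLK8 replicate 2 stood apart from the others of its group, with 18.9 to 20.55 as the chi-square of read counts over its degrees of freedom in each pair, where pairs of the other 3 gave 2.15 to 2.70. In the Ad-control libraries, the pair of replicates 1 and 3 gave 2.53, and the other pairs 6.71 to 11.4.

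Most defining endothelial genes were low in both groups. Of 10 endothelial markers, 8 had a mean below 0.5 RPKM in each group. The summed level of all 10 was 4.70 to 6.32 RPKM in the Ad-KLK8 libraries and 5.93 to 7.21 RPKM in the Ad-control libraries. Most of it was Egfl7, at 4.59 RPKM in the Ad-KLK8 libraries and 4.54 RPKM in the Ad-control libraries on average. Of the 2 tested markers, Kdr was lower in the Ad-KLK8 libraries and Egfl7 did not pass. Cdh5, the cadherin of endothelial junctions, averaged 0.00999 RPKM in the Ad-KLK8 libraries and 0.0910 RPKM in the Ad-control libraries. This rests on 3 reads over all Ad-KLK8 libraries and 24 reads over all Ad-control libraries. Cdh5 was below the level tested, so its values show a low level and not a difference. All 7 fibroblast markers were higher in the Ad-KLK8 libraries, with a sum of 3498 to 3611 RPKM, against 1552 to 1753 RPKM in the Ad-control libraries. Of 5 mesothelial markers 4 were higher and 1 was lower, and their sum was 541 to 590 RPKM in the Ad-KLK8 libraries and 161 to 209 RPKM in the Ad-control libraries. Most of the Ad-KLK8 sum was Upk3b, at 405 RPKM on average, against 69.9 RPKM in the Ad-control libraries. The lower marker was Krt19, at 0.758 RPKM in the Ad-KLK8 libraries and 22.5 RPKM in the Ad-control libraries on average (log2 difference −3.68). The 5 leukocyte markers summed to 13.4 to 16.0 RPKM in the Ad-KLK8 libraries and 22.3 to 40.4 RPKM in the Ad-control libraries, with Cd3e at 0 in all Ad-KLK8 libraries. The 5 epithelial markers summed to 0.183 to 2.35 RPKM in the Ad-KLK8 libraries and 0.285 to 3.69 RPKM in the Ad-control libraries, with Scgb1a1 at 0 in every library. The part of these marker differences in the results below was not tested. In bulk RNA of this kind, fewer cells of a type and less RNA per cell cannot be told apart.

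Nearly all of the replication machinery was lower in the Ad-KLK8 libraries. All 35 members had a mean of at least 0.5 RPKM over the 8 libraries and were tested with limma on log2(RPKM + 1). At a Benjamini-Hochberg adjusted p of 0.05 over all 11998 genes tested, 33 members were lower and 2 were higher. The background was 52.0% of all tested genes lower and 25.7% higher, 77.7% in either direction, so that a call as such was common in this comparison. For 26 of the 35 members the fall reached 2-fold in log2(RPKM + 1), where the background was 9.85%, and no member was 2-fold higher, where the background was 2.35%. The median log2 difference was −1.73 over the members and −0.19 over all tested genes. RPKM values did not overlap between the groups for 34 of the 35 members, against 72.2% of all tested genes, made up of 49.1% lower and 23.1% higher in the Ad-KLK8 libraries. The members together took 0.0564% ± 0.00284 of gene-assigned reads in the Ad-KLK8 libraries and 0.231% ± 0.00952 in the Ad-control libraries (SD, n = 4).

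Scaling between libraries shifts the baseline of these differences. After median-of-ratios scaling the median over all tested genes was −0.002 on the log2 scale, against −0.19 before scaling. The share of tested genes called lower became 38.7% and the share called higher 38.4%, and the median over the members was −1.54. With that scaling 31 members were lower and 2 higher, and the remaining 2, Rpa3 and Rnaseh2a, no longer passed. A fall of 2-fold or more was then seen for 23 members, where the background was 6.8%. A voom fit on the recovered reads gave the same member counts, with 39.3% of tested genes lower and 37.9% higher.

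**Figure D1:**
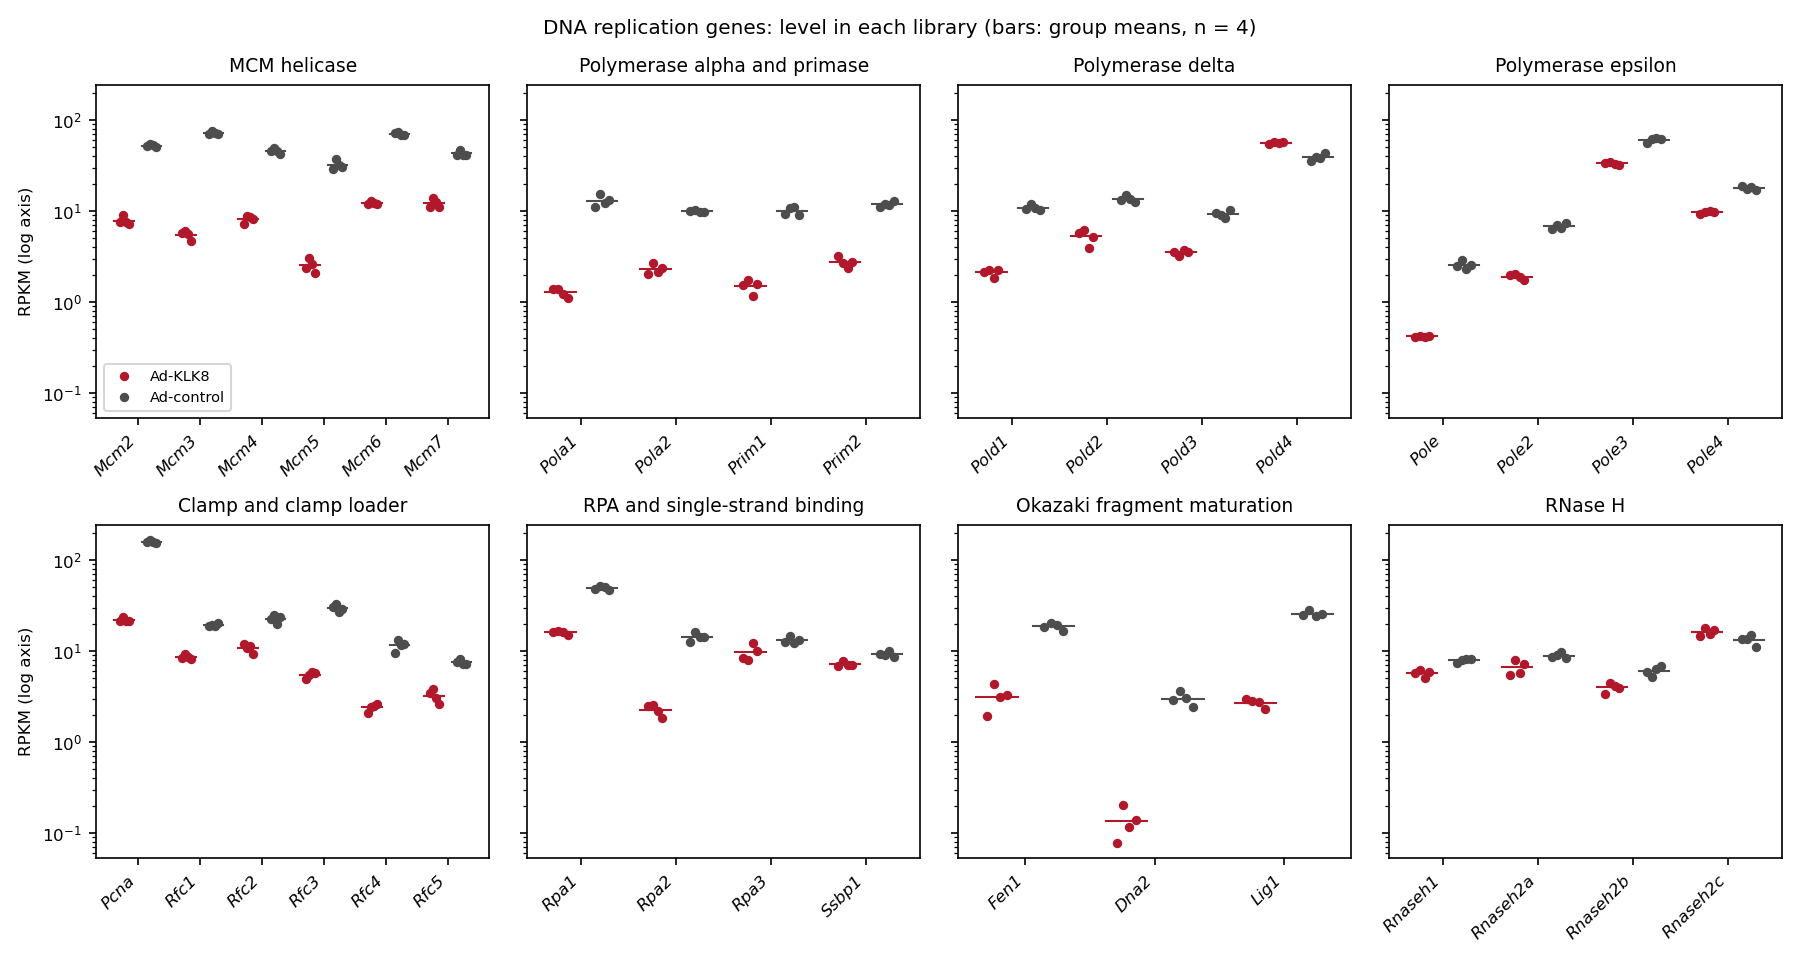
Level of each of the 35 replication genes in RPKM on a log axis, one panel per subunit group, with a point for each library (Ad-KLK8 red, Ad-control grey) and a bar at the mean of each group of 4. Each red set lies below its grey set except for Pold4 and Rnaseh2c, and Dna2 is the lowest gene in the Ad-KLK8 libraries at 0.0777 to 0.202 RPKM.

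Promoter sequences are given for both ends of this range, with every window of the 5 members with a window that had the lowest log2 differences (Mcm3, Mcm5, Lig1, Pcna and Pola1) and of the 2 members that were higher. RefSeq promoter windows (mouse build GRCm38.p6, 250 bases before to 50 bases after the transcription start) were matched by Entrez identifier to 29 of the 35 members. They number 35, because Mcm7, Pole4, Pold2, Fen1 and Lig1 have more than 1, and a gene counts as matched below if any of its windows holds the letters. No window was matched for Mcm4, Prim2, Pole, Rfc2, Rnaseh1 and Rnaseh2b. Capitals mark any of the 4 spellings of the E2F consensus, TTTCGCGC, TTTGGCGC, TTTCCCGC and TTTGCCGC, on either strand. The windows lie at chr1:20820263-20820562 (minus strand) for Mcm3, chr8:75109259-75109558 (plus strand) for Mcm5, chr2:132253131-132253430 (minus strand) for Pcna and chrX:93632106-93632405 (minus strand) for Pola1. The windows of Lig1 lie at chr7:13276925-13277224, chr7:13278576-13278875 and chr7:13279015-13279314 (plus strand) and are printed in that order. Those of the 2 members that were higher in the Ad-KLK8 libraries lie at chr19:4231643-4231942 (plus strand) for Pold4 and chr19:5601623-5601922 (plus strand) for Rnaseh2c. Each sequence is written 5′ to 3′ on the strand of its gene.
Mcm3: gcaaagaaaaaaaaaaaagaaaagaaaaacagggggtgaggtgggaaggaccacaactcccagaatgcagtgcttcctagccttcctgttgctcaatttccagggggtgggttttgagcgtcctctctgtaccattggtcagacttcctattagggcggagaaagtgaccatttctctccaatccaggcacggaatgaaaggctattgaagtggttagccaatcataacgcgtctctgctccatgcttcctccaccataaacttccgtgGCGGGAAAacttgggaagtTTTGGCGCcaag
Mcm5: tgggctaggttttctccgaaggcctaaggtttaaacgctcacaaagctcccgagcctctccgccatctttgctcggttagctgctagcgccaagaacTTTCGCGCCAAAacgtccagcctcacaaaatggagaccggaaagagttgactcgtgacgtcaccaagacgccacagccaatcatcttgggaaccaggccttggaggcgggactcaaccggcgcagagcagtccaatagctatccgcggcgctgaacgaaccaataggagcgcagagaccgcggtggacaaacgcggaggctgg
Lig1: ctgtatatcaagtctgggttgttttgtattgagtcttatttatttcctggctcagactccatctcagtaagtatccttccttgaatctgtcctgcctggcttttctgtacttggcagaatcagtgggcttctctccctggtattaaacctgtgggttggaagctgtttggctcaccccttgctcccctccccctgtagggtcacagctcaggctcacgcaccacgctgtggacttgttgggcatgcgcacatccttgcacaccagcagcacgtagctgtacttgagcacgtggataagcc
Lig1: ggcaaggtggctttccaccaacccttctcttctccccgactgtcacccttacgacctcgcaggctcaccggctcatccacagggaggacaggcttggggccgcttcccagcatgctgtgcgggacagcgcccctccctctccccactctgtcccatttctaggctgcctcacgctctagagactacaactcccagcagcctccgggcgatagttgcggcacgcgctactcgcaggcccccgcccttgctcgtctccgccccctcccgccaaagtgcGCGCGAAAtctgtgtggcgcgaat
Lig1: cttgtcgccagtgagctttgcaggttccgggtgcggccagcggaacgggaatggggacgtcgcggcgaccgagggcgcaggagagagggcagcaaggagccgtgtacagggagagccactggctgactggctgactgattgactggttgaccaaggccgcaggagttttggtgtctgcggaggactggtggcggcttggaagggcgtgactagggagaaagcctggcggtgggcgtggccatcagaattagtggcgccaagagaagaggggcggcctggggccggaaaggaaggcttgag
Pcna: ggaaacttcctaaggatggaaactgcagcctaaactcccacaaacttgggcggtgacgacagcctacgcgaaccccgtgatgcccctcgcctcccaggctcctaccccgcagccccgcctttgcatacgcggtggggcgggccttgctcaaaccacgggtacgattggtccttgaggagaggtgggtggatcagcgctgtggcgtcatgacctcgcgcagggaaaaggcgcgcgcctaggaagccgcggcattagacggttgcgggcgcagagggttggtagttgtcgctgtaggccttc
Pola1: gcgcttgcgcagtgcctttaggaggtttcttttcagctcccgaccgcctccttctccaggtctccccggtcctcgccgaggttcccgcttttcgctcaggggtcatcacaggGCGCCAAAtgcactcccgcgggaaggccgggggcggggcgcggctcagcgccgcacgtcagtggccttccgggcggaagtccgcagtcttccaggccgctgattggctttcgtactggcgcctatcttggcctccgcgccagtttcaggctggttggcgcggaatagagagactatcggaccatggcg
Pold4: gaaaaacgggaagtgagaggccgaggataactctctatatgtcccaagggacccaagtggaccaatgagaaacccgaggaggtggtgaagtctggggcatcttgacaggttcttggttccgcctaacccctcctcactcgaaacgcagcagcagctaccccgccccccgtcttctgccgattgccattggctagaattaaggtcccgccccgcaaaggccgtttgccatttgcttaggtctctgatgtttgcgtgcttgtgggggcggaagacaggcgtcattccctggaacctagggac
Rnaseh2c: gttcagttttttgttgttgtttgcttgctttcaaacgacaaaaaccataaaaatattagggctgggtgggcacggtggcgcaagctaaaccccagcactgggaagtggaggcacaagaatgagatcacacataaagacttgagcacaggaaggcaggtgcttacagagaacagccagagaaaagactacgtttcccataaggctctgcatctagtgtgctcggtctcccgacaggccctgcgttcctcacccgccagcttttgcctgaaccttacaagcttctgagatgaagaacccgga

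At least 1 of these spellings stood in a window of 11 of the 29 members, or 37.9%. The 11 genes are Mcm3, Mcm5, Mcm6, Mcm7, Pola1, Pold1, Pold3, Pole2, Pole4, Rfc3 and Lig1. For Lig1 the match stood in 1 of its 3 windows, and for Mcm7 in 1 of 2. The same letters were found for 2.60% of all 27025 genes with a window and for 4.83% of the 9631 tested genes with one. In Mcm5 and Mcm6 a pair of matches on opposite strands overlap each other. The same 4 spellings without their first T were found for 18 of the 29 members (62.1%), 10.9% of all genes and 19.7% of tested genes. The letters GGCGGGAA, which can overlap a match of TTTCCCGC on the other strand, were found for 5 members (17.2%), 2.52% of all genes and 4.77% of tested genes. For CCAAT the counts were 16 members (55.2%), 41.1% of all genes and 43.1% of tested genes. For GGGCGG they were 20 members (69%), 38.2% of all genes and 70.2% of tested genes, so GGGCGG was no more common in the members than in tested genes.

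Members with and without an 8-letter match overlapped in their change. The log2 differences of the 11 with a match ran from −3.49 to −0.82, with a median of −2.25. Those of the 18 with a window and no match ran from −2.80 to 0.51, with a median of −1.40, and included strongly lower genes such as Pcna and Mcm2. The difference between these sets was not tested. These matches describe letters in a window, not binding sites.

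All 6 subunits of the MCM helicase, the ring that unwinds DNA ahead of the fork, were at least 2-fold lower in the Ad-KLK8 libraries. Mcm3 had 5.71, 6.06, 5.604 and 4.67 RPKM in the Ad-KLK8 libraries, against 70.7, 74.9, 71.8 and 70.5 RPKM in the Ad-control libraries. Every Ad-KLK8 library was far under every Ad-control library, and the log2 difference was −3.49 ± 0.06 (SE; limma adjusted p = 1.99e-10). Mcm3 stood at place 11 from the lowest among all 11998 tested genes in that difference. Mcm7, the subunit with the smallest change, had 11.0, 13.9, 12.5 and 11.0 RPKM in the Ad-KLK8 libraries, against 41.6, 46.8, 41.4 and 41.4 RPKM in the Ad-control libraries. The groups did not overlap for Mcm7 either, with replicate 2 the highest of each group and a log2 difference of −1.75 ± 0.07 (adjusted p = 1.08e-08). Mcm5, which forms a gate of the ring with Mcm2, averaged 2.53 ± 0.417 RPKM in the Ad-KLK8 libraries and 32.2 ± 3.81 RPKM in the Ad-control libraries (SD, n = 4). Mcm2 averaged 7.83 ± 0.851 RPKM in the Ad-KLK8 libraries and 52.4 ± 1.78 RPKM in the Ad-control libraries. Mcm4 and Mcm6, which are part of the helicase core with Mcm7, kept 18.0% and 17.4% of their Ad-control means in the Ad-KLK8 libraries.

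The fall was uneven among the MCM subunits, whose proteins are present once each in the ring. As a share of the summed RPKM of the 6 genes, Mcm3 made up 11.4% ± 0.863 in the Ad-KLK8 libraries and 22.8% ± 0.393 in the Ad-control libraries (SD, n = 4). Mcm7 made up 24.9% ± 0.886 in the Ad-KLK8 libraries and 13.6% ± 0.299 in the Ad-control libraries. RefSeq annotates Ap4m1, Mir25, Mir93 and Mir106b as overlapping Mcm7, so its level is uncertain as far as reads could be assigned to them. Mcm5 made up 5.20% ± 0.458 in the Ad-KLK8 libraries and 10.2% ± 0.788 in the Ad-control libraries. By mean share, Mcm6 and Mcm7 were the most abundant subunits in the Ad-KLK8 libraries, and Mcm3 and Mcm6 in the Ad-control libraries. Shares did not overlap between the groups for 5 of the 6 subunits, and Mcm2 was the exception at 15.3% to 16.85% in the Ad-KLK8 libraries and 16.3% to 16.8% in the Ad-control libraries. Because the shares sum to a fixed whole, they do not vary independently, and this count has no background from other genes. The summed level of the 6 genes was 48.4 ± 3.97 RPKM in the Ad-KLK8 libraries and 315.5 ± 14.0 RPKM in the Ad-control libraries.

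**Figure D2:**
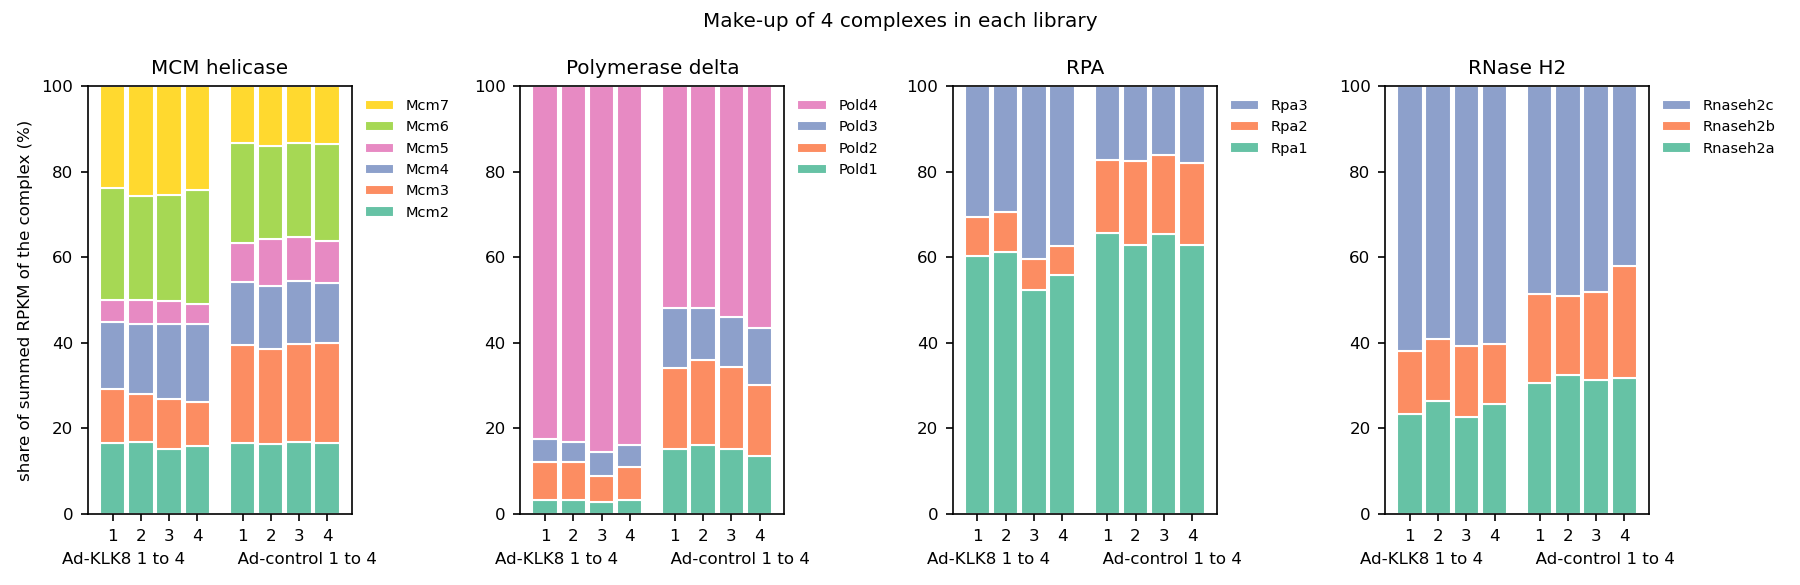
Share of each subunit in the summed RPKM of its complex, in percent, for the MCM helicase, polymerase delta, RPA and RNase H2, with one stacked bar per library (Ad-KLK8 replicates 1 to 4 at the left, Ad-control replicates 1 to 4 at the right). Pold4 fills 82.5% to 85.5% of the polymerase delta bars in the Ad-KLK8 libraries and 51.9% to 56.4% in the Ad-control libraries.

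Polymerase alpha and primase, which start every Okazaki fragment, were lower in all 4 subunits, each by at least 2-fold. Pola1, the catalytic subunit, had 1.39, 1.40, 1.22 and 1.11 RPKM in the Ad-KLK8 libraries, against 11.1, 15.2, 12.2 and 13.2 RPKM in the Ad-control libraries. No library of one group came near the other, and the log2 difference was −2.60 ± 0.09 (SE; limma adjusted p = 3.12e-09). Pola2, the accessory subunit, had 2.03, 2.66, 2.16 and 2.35 RPKM in the Ad-KLK8 libraries, against 9.92, 10.3, 9.76 and 9.79 RPKM in the Ad-control libraries. Its values were tight in the Ad-control libraries and the groups were well apart, with a log2 difference of −1.73 ± 0.06 (adjusted p = 4.98e-09). The primase genes Prim1, the catalytic subunit, and Prim2, the large subunit, averaged 1.51 ± 0.251 and 2.76 ± 0.352 RPKM in the Ad-KLK8 libraries and 10.02 ± 0.991 and 11.9 ± 0.780 RPKM in the Ad-control libraries (SD, n = 4). In RPKM the 4 subunits lay close together in the Ad-control libraries, at 9.94 to 12.9 RPKM on average.

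Polymerase delta, the lagging-strand polymerase, was split. Pold1, the catalytic subunit, had 2.11, 2.26, 1.84 and 2.26 RPKM in the Ad-KLK8 libraries, against 10.4, 12.05, 10.75 and 10.3 RPKM in the Ad-control libraries. All Ad-KLK8 values were below all Ad-control values, and the log2 difference was −1.93 ± 0.07 (SE; limma adjusted p = 3.60e-09). Pold4, the smallest subunit, which human cells are known to lose from the enzyme after DNA damage, went the other way. It had 53.7, 56.9, 55.8 and 56.8 RPKM in the Ad-KLK8 libraries, against 35.75, 38.8, 38.1 and 42.8 RPKM in the Ad-control libraries. The groups did not overlap, and the log2 difference was 0.51 ± 0.05 (adjusted p = 6.27e-06). Pold4 was thus 1.435 times its Ad-control mean, and it was called higher under each of 18 alternative settings, with a log2 difference of 0.47 to 0.73. The regulatory subunit Pold2 averaged 5.24 ± 0.958 RPKM in the Ad-KLK8 libraries and 13.6 ± 0.990 RPKM in the Ad-control libraries, and the PCNA-binding subunit Pold3 averaged 3.504 ± 0.201 RPKM in the Ad-KLK8 libraries and 9.26 ± 0.747 RPKM in the Ad-control libraries (SD, n = 4). Pold1 had 0.0330 to 0.0399 times the RPKM of Pold4 in the Ad-KLK8 libraries and 0.241 to 0.310 times in the Ad-control libraries. RefSeq annotates Aebp1 as overlapping Pold2, and LOC102631992 and Gm45928 as overlapping Pold4, so the levels of both are uncertain as far as reads could be assigned to either gene.

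Polymerase epsilon, which extends the leading strand, was lower in all 4 subunits. The catalytic subunit Pole and the second subunit Pole2 kept 16.3% and 28.0% of their Ad-control means in the Ad-KLK8 libraries. The small histone-fold subunits Pole3 and Pole4, of which Pole3 is also known from a chromatin remodelling complex, kept 55.0% and 54.1%. Pole2 had 1.96, 2.02, 1.89 and 1.74 RPKM in the Ad-KLK8 libraries, against 6.32, 7.005, 6.53 and 7.30 RPKM in the Ad-control libraries. The libraries of each group were close together, and the log2 difference was −1.42 ± 0.06 (SE; limma adjusted p = 1.05e-08). Pole4 had 9.32, 9.66, 9.93 and 9.70 RPKM in the Ad-KLK8 libraries, against 18.8, 17.2, 18.3 and 17.1 RPKM in the Ad-control libraries. It too had no overlap, with a log2 difference of −0.82 ± 0.04 (adjusted p = 5.48e-08). Pole averaged 0.417 ± 0.00710 RPKM in the Ad-KLK8 libraries and 2.56 ± 0.233 RPKM in the Ad-control libraries (SD, n = 4), which rests on 55 to 59 reads per Ad-KLK8 library. Because Pole is low, its log2(RPKM + 1) difference of −1.33 understates the change, and voom on the recovered reads gave −2.39.

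The sliding clamp and its loader were lower throughout, with each of the 6 genes at least 2-fold down in RPKM as deposited. After median-of-ratios scaling Rfc1, Rfc2 and Rfc5 fell short of 2-fold, with log2 differences of −0.89, −0.80 and −0.84. Pcna, the ring that tethers polymerases to DNA, was the most abundant member in the Ad-control libraries. It had 21.3, 23.4, 21.3 and 21.55 RPKM in the Ad-KLK8 libraries, against 157.6, 167.0, 156.0 and 153.8 RPKM in the Ad-control libraries. The gap between the groups was many times the spread within either, and the log2 difference was −2.80 ± 0.04 (SE; limma adjusted p = 1.62e-10). RefSeq lists the pseudogenes Pcna-ps1 and Pcna-ps2, so the level of Pcna is uncertain as far as reads were shared with them. Rfc2, one of the small subunits of the clamp loader, had 11.9, 10.8, 11.3 and 9.26 RPKM in the Ad-KLK8 libraries, against 22.5, 24.7, 19.8 and 23.6 RPKM in the Ad-control libraries. Its groups did not overlap either, with a log2 difference of −1.001 ± 0.08 (adjusted p = 1.08e-06). Of the other small subunits, Rfc3 and Rfc4 kept 18.4% and 20.8% of their Ad-control means in the Ad-KLK8 libraries, and Rfc5 kept 42.9%. The large subunit Rfc1 averaged 8.59 ± 0.523 RPKM in the Ad-KLK8 libraries and 19.45 ± 0.715 RPKM in the Ad-control libraries (SD, n = 4). Rfc3 made up 18.0% of the summed RPKM of the 5 loader genes in the Ad-KLK8 libraries and 32.7% in the Ad-control libraries.

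Single-strand binding genes differed in size of change. Rpa2, the middle subunit of RPA and a target of the DNA damage kinases, had 2.52, 2.52, 2.21 and 1.83 RPKM in the Ad-KLK8 libraries, against 12.55, 16.2, 14.1 and 14.4 RPKM in the Ad-control libraries. All Ad-KLK8 libraries were far below the Ad-control libraries, and the log2 difference was −2.23 ± 0.09 (SE; limma adjusted p = 7.70e-09). Rpa1, the large DNA-binding subunit, averaged 16.0 ± 0.684 RPKM in the Ad-KLK8 libraries and 49.4 ± 2.47 RPKM in the Ad-control libraries (SD, n = 4). Rpa3, the small subunit, was at 7.93 to 12.34 RPKM in the Ad-KLK8 libraries and 12.36 to 14.6 RPKM in the Ad-control libraries, so that its groups all but touched. Its log2 difference was −0.44 ± 0.11 (adjusted p = 0.00514), and it was −0.23 (adjusted p = 0.0895) after median-of-ratios scaling. The ratio of Rpa2 to Rpa3 in RPKM was 0.179 to 0.318 in the Ad-KLK8 libraries and 0.987 to 1.14 in the Ad-control libraries. Ssbp1, the mitochondrial single-strand binding protein and so no part of nuclear replication, had 6.90, 7.74, 7.06 and 7.003 RPKM in the Ad-KLK8 libraries, against 9.31, 8.98, 9.93 and 8.64 RPKM in the Ad-control libraries. The groups lay close but did not overlap, and the log2 difference was −0.32 ± 0.06 (adjusted p = 3.22e-04), or −0.12 (adjusted p = 0.0478) after median-of-ratios scaling.

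All 3 genes that mature Okazaki fragments were at least 2-fold lower in the Ad-KLK8 libraries. Lig1, the ligase that seals the fragments, had 2.98, 2.83, 2.76 and 2.31 RPKM in the Ad-KLK8 libraries, against 24.8, 28.1, 24.0 and 25.2 RPKM in the Ad-control libraries. Its groups were wide apart, with a log2 difference of −2.84 ± 0.07 (SE; limma adjusted p = 7.57e-10). Dna2, a nuclease and helicase that trims long flaps, had 0.0777, 0.202, 0.116 and 0.141 RPKM in the Ad-KLK8 libraries, against 2.90, 3.63, 3.06 and 2.435 RPKM in the Ad-control libraries. In reads this was 6 to 15 per Ad-KLK8 library, against 165 to 239 per Ad-control library. Its log2 difference on the log2(RPKM + 1) scale was −1.81 ± 0.09 (adjusted p = 2.85e-08), the smallest of the 3 genes. In plain RPKM, however, Dna2 kept 4.46% of its Ad-control mean, the lowest value of all 35 members, and voom on the recovered reads gave −4.27. Fen1, the main flap nuclease, averaged 3.16 ± 0.963 RPKM in the Ad-KLK8 libraries and 18.7 ± 1.61 RPKM in the Ad-control libraries (SD, n = 4). Its Ad-KLK8 values ran from 1.94 RPKM in replicate 1 to 4.29 RPKM in replicate 2.

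RNase H genes, which remove RNA from RNA and DNA hybrids, changed least as a group, and none reached 2-fold. Rnaseh2c, an accessory subunit of RNase H2, had 14.55, 18.0, 15.35 and 16.9 RPKM in the Ad-KLK8 libraries, against 13.7, 13.6, 14.95 and 11.0 RPKM in the Ad-control libraries. It was the one member whose groups overlapped, and its log2 difference was 0.27 ± 0.09 (SE; limma adjusted p = 0.0193). Without Ad-KLK8 replicate 2 or replicate 4 this call was lost (adjusted p = 0.05 and 0.0507), while median-of-ratios scaling gave 0.48 (adjusted p = 5.79e-04). Rnaseh2b, the other accessory subunit, had 3.41, 4.435, 4.18 and 3.92 RPKM in the Ad-KLK8 libraries, against 5.81, 5.175, 6.38 and 6.85 RPKM in the Ad-control libraries. Its groups did not overlap, with a log2 difference of −0.50 ± 0.09 (adjusted p = 3.68e-04). The catalytic subunit Rnaseh2a averaged 6.64 ± 1.22 RPKM in the Ad-KLK8 libraries and 8.93 ± 0.613 RPKM in the Ad-control libraries (SD, n = 4; log2 difference −0.39, adjusted p = 0.00513), and it no longer passed after median-of-ratios scaling (−0.20, adjusted p = 0.102). Rnaseh1, a single-chain enzyme found in the nucleus and mitochondria, averaged 5.71 ± 0.462 RPKM in the Ad-KLK8 libraries and 7.93 ± 0.337 RPKM in the Ad-control libraries. The summed level of the 3 RNase H2 genes was 26.8 ± 3.09 RPKM in the Ad-KLK8 libraries and 28.3 ± 2.05 RPKM in the Ad-control libraries, with Rnaseh2c at 60.5% of it in the Ad-KLK8 libraries and 46.9% in the Ad-control libraries.

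**Figure D3:**
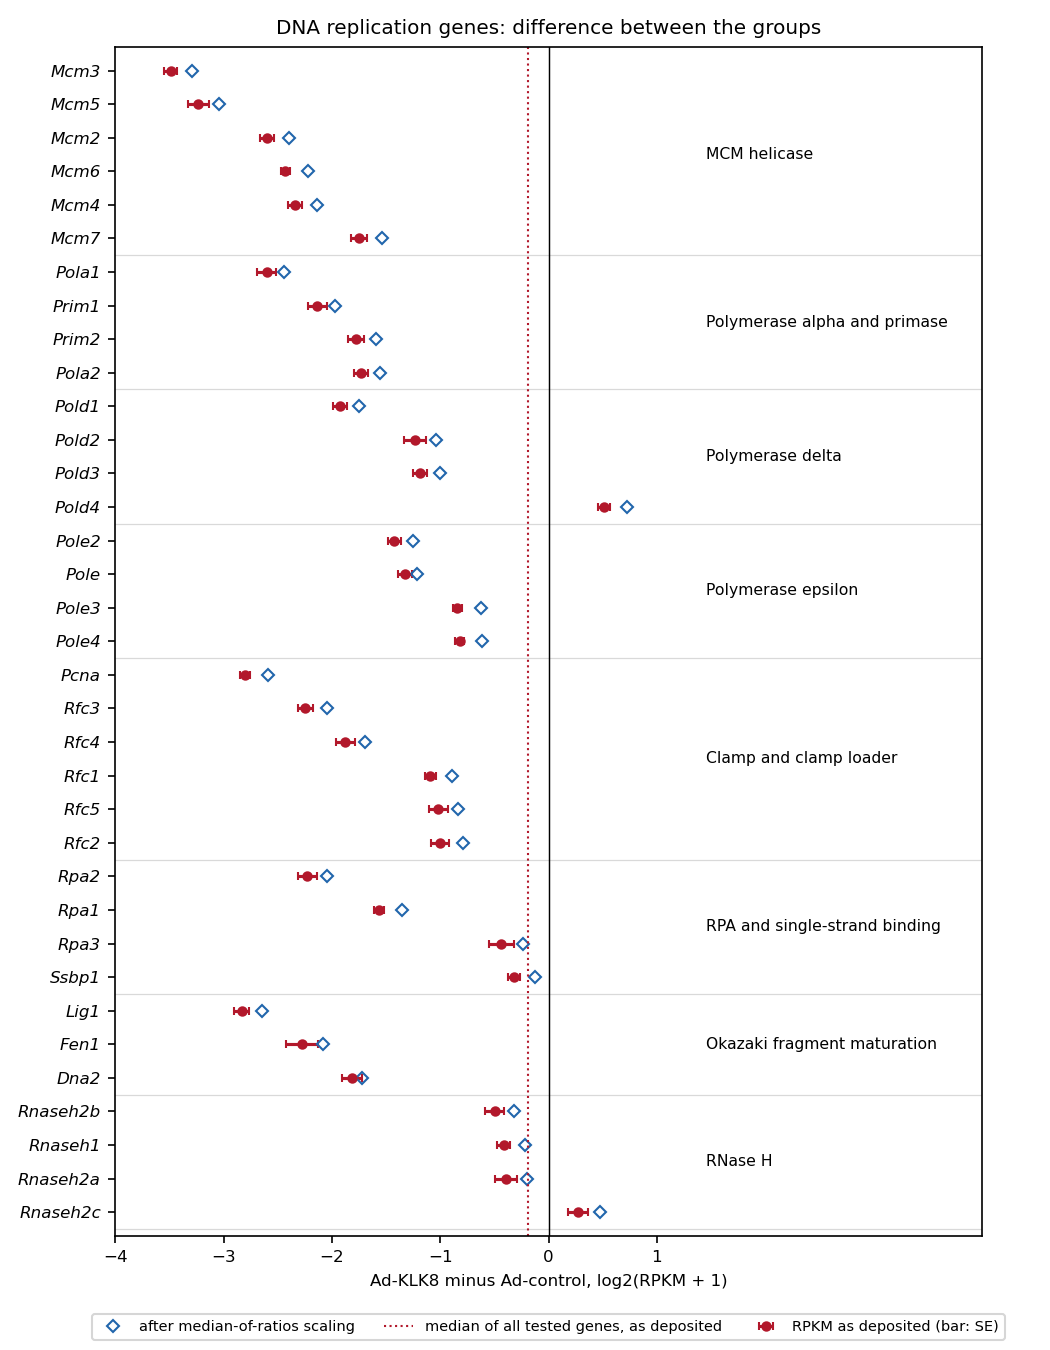
Ad-KLK8 minus Ad-control difference of each replication gene on the log2(RPKM + 1) scale, by subunit group, for RPKM as deposited (filled points, bars are the limma SE) and after median-of-ratios scaling (open diamonds), with a dotted line at the median of all tested genes, −0.19. Values run from −3.49 for Mcm3 to 0.51 for Pold4, and the RNase H genes, Ssbp1 and Rpa3 lie nearest to the dotted line.

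By subunit group, the median differences on the log2(RPKM + 1) scale ran from the MCM helicase, the lowest, to RNase H. The medians were −2.52 for the MCM helicase, −2.27 for Okazaki fragment maturation and −1.96 for polymerase alpha and primase. They were −1.49 for the clamp and its loader, −1.21 for polymerase delta, −1.08 for polymerase epsilon, −1.001 for single-strand binding and −0.40 for RNase H. These groups hold 3 to 6 genes each and their ranges overlap, and the order was not tested. It also depends on the scale, which understates the change of low genes. With voom, Fen1, Lig1 and Dna2 of Okazaki fragment maturation had log2 differences of −2.41, −3.02 and −4.27. The MCM genes then ran from −3.50 for Mcm3 to −1.62 for Mcm7, so the helicase need not come first. Across 29 subunits of 7 complexes, the share of the complex's summed RPKM did not overlap between the groups for 26. No such count was made for other sets of genes, and 72.2% of all tested genes did not overlap in RPKM itself. Shares within a complex also sum to a fixed whole, so the shift of any subunit moves the others.

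Within the groups the members shared a library pattern. Ad-KLK8 replicate 2 had the highest value of its group for 26 of the 35 members, or 74.3%, while it was highest for 39.9% of all tested genes. Ad-control replicate 2 was the highest of its group for 22 members, or 62.9%, against 22.8% of all tested genes. These departures were small beside the difference between groups, with a median of 0.09 and 0.08 on the log2 scale. Leaving out Ad-KLK8 replicate 2 gave 33 lower members and 1 higher, with a median log2 difference of −1.77, and leaving out Ad-control replicate 2 gave 33 lower and 2 higher, with a median of −1.71. The coefficient of variation of a member had a median of 10.5% in the Ad-KLK8 libraries and 7.07% in the Ad-control libraries, and Dna2 was the most variable member in each, at 38.8% in the Ad-KLK8 libraries and 16.4% in the Ad-control libraries. The members together had 10128 to 10762 reads per Ad-KLK8 library and 36546 to 38654 per Ad-control library. Counting error therefore weighs more in the Ad-KLK8 values, and its part in these coefficients was not tested.

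Genes that load and fire replication origins moved in the same direction, as did genes listed with them, such as Gmnn, Mcm8 and Mcm9. All 25 tested genes of an origin licensing and firing list were lower in the Ad-KLK8 libraries, 20 of them by at least 2-fold, with a median log2 difference of −1.61. After median-of-ratios scaling 24 of the 25 were lower, 18 of them by at least 2-fold, and Gins4 no longer passed. For this and the related lists below, the background was 52.0% of all tested genes lower, 9.85% by at least 2-fold, and 25.7% higher. After median-of-ratios scaling it was 38.7% lower, 6.8% by at least 2-fold, and 38.4% higher. Wdhd1, which links the helicase to polymerase alpha, averaged 0.636 ± 0.0834 RPKM in the Ad-KLK8 libraries and 12.6 ± 1.18 RPKM in the Ad-control libraries (SD, n = 4; limma adjusted p = 5.45e-10). Cdt1, which helps load the MCM ring, averaged 8.00 ± 0.945 RPKM in the Ad-KLK8 libraries and 50.7 ± 0.827 RPKM in the Ad-control libraries. Dbf4, the activator of the kinase that fires origins, averaged 4.30 ± 0.254 RPKM in the Ad-KLK8 libraries and 21.8 ± 1.34 RPKM in the Ad-control libraries. Mcm10, a helicase activation factor, averaged 0.289 ± 0.0630 RPKM in the Ad-KLK8 libraries and 4.77 ± 0.330 RPKM in the Ad-control libraries.

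Fork factors outside the pathway annotation were also mostly lower. Of 16 tested genes for alternative clamp loaders and fork factors 15 were lower and 1 did not pass, and the median was −1.77. With median-of-ratios scaling, 13 were lower, 1 was higher and 2 did not pass. Chaf1b, of the chromatin assembly factor that follows the fork, averaged 4.56 ± 0.326 RPKM in the Ad-KLK8 libraries and 49.7 ± 3.20 RPKM in the Ad-control libraries (SD, n = 4; limma adjusted p = 1.99e-10). Uhrf1 and Dnmt1, which copy DNA methylation onto new strands, averaged 1.52 ± 0.127 and 9.16 ± 0.668 RPKM in the Ad-KLK8 libraries and 22.2 ± 2.16 and 40.0 ± 1.75 RPKM in the Ad-control libraries. The histone chaperone Asf1b averaged 1.22 ± 0.151 RPKM in the Ad-KLK8 libraries and 12.8 ± 1.59 RPKM in the Ad-control libraries.

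Other DNA polymerases and mitochondrial replication genes had smaller median differences on the log2(RPKM + 1) scale. Of 11 tested translesion and repair polymerases 8 were lower and 3 did not pass, and the median log2 difference was −0.75, while median-of-ratios scaling left 8 lower and 1 higher. Rev1 and Polh, which copy past damaged bases, averaged 6.41 ± 0.344 and 5.01 ± 0.380 RPKM in the Ad-KLK8 libraries and 16.8 ± 0.940 and 11.2 ± 0.365 RPKM in the Ad-control libraries (SD, n = 4). Polb, the base excision repair polymerase, and Polk, another translesion polymerase, averaged 10.4 ± 0.347 and 15.8 ± 1.002 RPKM in the Ad-KLK8 libraries and 18.1 ± 0.390 and 27.2 ± 0.317 RPKM in the Ad-control libraries. In limma the adjusted p was 1.11e-08 for Rev1, the lowest of the 4, and 1.46e-07 for Polk, the highest. Polq, picked out after its values were seen, fell further in plain RPKM. It averaged 0.116 RPKM in the Ad-KLK8 libraries and 1.22 RPKM in the Ad-control libraries, or 9.47% of its Ad-control mean. Its difference was −0.99 on the log2(RPKM + 1) scale and −3.19 with voom, on 18 to 29 reads per Ad-KLK8 library. Of 7 tested mitochondrial replication genes 5 were lower and 2 did not pass, and the median was −0.31, while median-of-ratios scaling left 3 lower and 1 higher. With 38.7% of all tested genes lower after that scaling, the mitochondrial count was then near the background. Tfam, which packages mitochondrial DNA, averaged 7.11 ± 0.669 RPKM in the Ad-KLK8 libraries and 16.4 ± 0.846 RPKM in the Ad-control libraries (limma adjusted p = 8.01e-08). The mitochondrial RNA polymerase gene Polrmt and the mitochondrial exonuclease gene Mgme1 averaged 5.98 ± 0.379 and 1.12 ± 0.0863 RPKM in the Ad-KLK8 libraries and 8.75 ± 0.399 and 2.03 ± 0.505 RPKM in the Ad-control libraries. Polg, the mitochondrial DNA polymerase, averaged 7.69 ± 0.512 RPKM in the Ad-KLK8 libraries and 9.76 ± 0.464 RPKM in the Ad-control libraries (limma adjusted p = 4.47e-04), and it did not pass after median-of-ratios scaling (log2 difference −0.11, adjusted p = 0.0818).

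Markers of dividing cells and the E2F family were measured beside the replication genes. Of 12 proliferation markers 11 were lower and Ccnb2 did not pass, with a median of −1.24. Ccna2, the cyclin of S and G2 phase, and Cdk1, the mitotic kinase, averaged 1.60 ± 0.442 and 5.17 ± 1.05 RPKM in the Ad-KLK8 libraries and 9.48 ± 1.11 and 19.6 ± 1.22 RPKM in the Ad-control libraries (SD, n = 4). Mki67, a protein of cycling cells, and Birc5, of the chromosomal passenger complex, averaged 1.60 ± 0.347 and 0.759 ± 0.206 RPKM in the Ad-KLK8 libraries and 8.72 ± 1.71 and 3.25 ± 0.450 RPKM in the Ad-control libraries. Of 16 tested genes of E2F factors, their partners and cyclin E, 14 were lower and 2 were higher, and the median was −1.21, while median-of-ratios scaling left 12 lower and 2 higher. E2f7 and E2f8, which are among the repressor E2F factors and not all of them, averaged 0.269 ± 0.0552 and 0.422 ± 0.102 RPKM in the Ad-KLK8 libraries and 11.4 ± 1.33 and 11.5 ± 1.15 RPKM in the Ad-control libraries. The cyclin E genes Ccne1 and Ccne2 averaged 4.86 ± 0.746 and 0.322 ± 0.149 RPKM in the Ad-KLK8 libraries and 52.1 ± 4.55 and 19.96 ± 2.44 RPKM in the Ad-control libraries. The highest limma adjusted p among these 8 genes was 7.21e-07, for Birc5. The 2 higher genes were Rbl2, which encodes the retinoblastoma-like protein p130 of resting cells, and Tfdp2, a partner of E2F factors, both picked out after their values were seen. Rbl2 averaged 6.62 ± 0.341 RPKM in the Ad-KLK8 libraries and 3.05 ± 0.226 RPKM in the Ad-control libraries, and Tfdp2 averaged 7.90 ± 0.231 RPKM in the Ad-KLK8 libraries and 6.94 ± 0.613 RPKM in the Ad-control libraries.

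**Figure D4:**
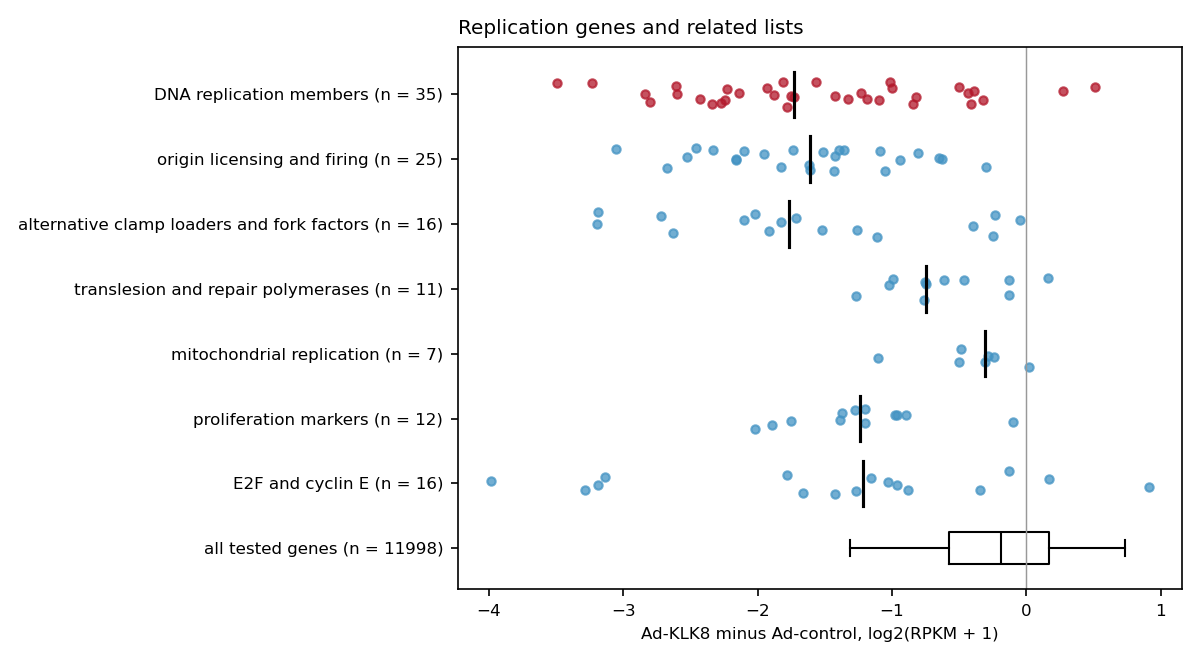
Ad-KLK8 minus Ad-control difference on the log2(RPKM + 1) scale for each tested gene of the replication pathway (red) and of related lists (blue), with a black bar at each median, above a box plot of all 11998 tested genes (box from the 25th to the 75th percentile, whiskers from the 5th to the 95th). The medians of the replication members, −1.73, and of the origin list, −1.61, lie below the lower whisker, and that of the mitochondrial list, −0.31, lies inside the box.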

How the data were processed

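The authors deposited 1 table of RPKM values per gene and library, a unit read from the table's name and its values. The tools named, per the submitters' processing notes, are Cufflinks, DESeq, HISAT2, Trimmomatic and SAMtools, without version or role, and the build named is the human GRCh38, although the gene identifiers are mouse. The sources used here do not give the annotation, the gene lengths or the assignment of shared reads. The RNA kit was a stranded one for mRNA, per the labels' protocols. Replicates were not pooled.

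Members, subunit groups, related lists and markers were chosen with earlier results of these data known. Limma 3.58.1 (R 4.3.3; lmFit and eBayes with trend, two-sided) was run on log2(RPKM + 1) for the 11998 genes that reached 0.5 RPKM on average over the 8 libraries. Group was the sole term, with Benjamini-Hochberg adjustment at 0.05. A difference on this scale understates the change of low genes. In all 17461 genes above 0 the values were whole multiples of 1 read within 0.001 read, and reads were recovered as the smallest such whole numbers for depth, replicate checks and a voom fit. Recovery and test were tried on simulated data with a fixed dispersion and most genes unchanged. These data differ in both respects, so that trial does not show how the test performs here. A count of 0 allows up to 0.160 to 0.190 RPM in a library, for counting error only. Klk8 had an exact permutation test. Values in every library are given for Pcna and for the members with the largest and smallest absolute log2 difference of each subunit group, and up to 4 genes with the smallest adjusted p are named from each related list. Alternatives were other pseudocounts, filters and scalings, voom, a replicate block and leaving out each library. Python 3.11.15, pandas 2.3.3 and scipy 1.17.1 were used. RefSeq (GRCm38.p6), matched by Entrez identifier to all 35 members, gave promoter windows and overlapping genes, which 13 members have. Among these members are Mcm7, Pole2, Rfc4, Rpa1, Fen1 and Lig1, besides Pold2 and Pold4. The levels of all 13 are uncertain as far as reads could be assigned to the other gene.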

Additional observations from a re-analysis of the deposited data

Results flagged for a closer look

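In 3 of 72 groups of 4 values checked (35 members and Klk8 in both groups), 1 library lay far from the other 3. Chance alone gives about 1 in 20 such groups. All 3 concern a replicate 2, which was also the highest library of its group for most members. Klk8 was at 3263 RPKM in Ad-KLK8 replicate 2, against 1159 to 1354 RPKM in the other Ad-KLK8 libraries. Pcna was at 23.41 RPKM in Ad-KLK8 replicate 2, against 21.3 to 21.55 RPKM in the other Ad-KLK8 libraries. Mcm7 was at 46.8 RPKM in Ad-control replicate 2, against 41.4 to 41.6 RPKM in the other Ad-control libraries. For Pcna and Mcm7 the distance between the groups was several times larger than these departures.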

How the results depend on the processing

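Of 35 members, 31 kept their call and direction under every alternative that tested them, 32 of the 35 being tested at a minimum mean of 5 RPKM. Rpa3 and Rnaseh2a no longer passed after median-of-ratios, upper-quartile and quantile scaling and with voom, and Ssbp1 no longer passed after quantile normalization. Rnaseh2c no longer passed without Ad-KLK8 replicate 2 or 4, so that higher members numbered 1 to 2 when each library was left out in turn. No member changed direction. The median log2 difference of the members was −1.73 as reported, −1.54 after median-of-ratios, −1.58 after upper-quartile and −1.45 after quantile scaling, −1.91 after rescaling to TPM, −2.07 with a pseudocount of 0.1 and −1.90 with voom. Genes called numbered 6243 lower and 3079 higher as reported, 4640 and 4609 after median-of-ratios, 4913 and 4354 after upper-quartile and 4375 and 4892 after quantile scaling, and 4720 and 4552 with voom, where the median of all genes lay between −0.035 and 0.032. With each library left out in turn, 8899 to 9353 genes and 33 lower members were called, and the members' median was −1.77 to −1.69. The Klk8 difference was 0.31, or 0.53 after median-of-ratios scaling (exact permutation p = 0.0857), and without each library in turn it ran from −0.036, without Ad-KLK8 replicate 2 (exact permutation p = 0.743), to 0.46. Deviations of same-numbered libraries had correlations of −0.09 to 0.01 across genes, so the numbers were not taken as pairs, and the replicate block gave 9170 genes, against 9322 without it, with 33 members lower and 2 higher and a Klk8 difference of 0.31 (exact sign-flip permutation p = 0.5). Depth limits Dna2 most, with 6 reads in its lowest library.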

Other observations

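Members also carry the codes of repair pathways, whose other genes had smaller median differences on the log2(RPKM + 1) scale. That scale understates the change of low genes. The medians of the members within each code were −1.21 for homologous recombination, −1.23 for mismatch repair and −1.57 for the Fanconi anemia pathway. For base excision repair the members' median was −1.325, and for nucleotide excision repair it was −1.28. The background for the counts here was 52.0% of all tested genes lower and 25.7% higher. Of 27 tested genes of homologous recombination that are not members 23 were lower in the Ad-KLK8 libraries and 1 was higher, with a median log2 difference of −0.91 (−0.79 after median-of-ratios scaling). For the remaining 7 genes of mismatch repair 6 were lower and 1 was higher, with a median of −0.74 (−0.57). The remaining 43 tested genes of the Fanconi anemia pathway, which repairs crosslinks, had 35 lower and 2 higher, with a median of −0.55 (−0.46). For base excision repair the other 21 genes had a median of −0.49 (−0.30), with 13 lower and 4 higher. The remaining 25 genes of nucleotide excision repair had a median of −0.17 (0.02), with 14 lower, 4 higher and 7 that did not pass, close to the median over all tested genes. Of the members that carry these codes, 17 of 18 in nucleotide excision repair and 14 of 15 in mismatch repair were lower, and the exception in both was Pold4. Only Dna2 and the 4 RNase H genes carry no code other than that of DNA replication.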
